A study of Homo sapiens with 9 samples.

Results

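The aldehyde-clearing enzymes were followed through 10 genes chosen by name: the aldehyde dehydrogenases ALDH1A3, ALDH1A1, ALDH1B1, ALDH2, ALDH3A2, ALDH3B1, ALDH7A1 and ALDH9A1, and the formaldehyde route genes ADH5 and ESD. They are 10 of the 63187 genes in the count table, and 9 of them were among the 16030 genes with enough counts to be tested. ALDH1A1 was not. The rule for the choice names genes and uses no threshold on their values, but the genes were picked with earlier results of these data known. ESD is a hydrolase and not a dehydrogenase, and it is kept because it acts directly after ADH5.

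The cells were BEAS-2B, an immortalized line of human bronchial epithelium. They were left untreated (control), or were given for 24 h a 2% (v/v) dilution of aerosol condensate from propylene glycol and vegetable glycerine (PG/VG) or from an e-cigarette liquid that also held 18 mg/mL nicotine and Virginia tobacco flavor (EC). Each condition had 3 libraries, numbered 2, 3 and 4, and the labels give the same number as the batch, so that each batch holds 1 library of each condition. EC differs from PG/VG in nicotine and flavor together. The EC liquid was a commercial product, and the carrier ratio is stated for the PG/VG liquid only. The untreated cells received no condensate of any kind.

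Aldehydes are carbonyl compounds that react with the amino and thiol groups of proteins and with DNA bases, and heated propylene glycol and glycerine give formaldehyde, acetaldehyde and acrolein. Aldehyde dehydrogenases oxidize them to carboxylic acids with NAD or NADP, and family members differ in the compartment and in the chain they prefer. Formaldehyde joins glutathione without an enzyme, ADH5 oxidizes the adduct to S-formylglutathione, and ESD splits that into formate and glutathione. In airway epithelium these enzymes are a known part of the defense against smoke and inhaled solvents.

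The libraries held 16168260 to 24917838 counts on genes, with 1.32% to 1.92% on the mitochondrial genome. The 3 libraries of batch 4 stood apart from those of batches 2 and 3. The chi-square per gene between replicates of 1 condition was 37.7 to 54.5 in pairs with a batch 4 library and 3.88 to 12.5 in the other pairs, and 34.3% of the genes tested differed between batches. The batch was a term of the model because the authors removed it before their tests, and results are also given without batch 4. The epithelial keratins KRT7, KRT8 and KRT18 were abundant, with mean control levels of 860, 1058 and 546 CPM (counts scaled to the TMM-normalized library size). KRT8 and KRT18 have 51 and 68 annotated pseudogenes, and multi-mapping reads were ignored in counting, so the levels of these keratins are uncertain. The airway basal cell keratins KRT5 and KRT14 had 0 to 2 counts in every library, and EPCAM and CDH1, which define epithelium, averaged 1.20 and 0.68 CPM in control. Mesenchymal VIM and FN1 averaged 1068 and 4791 CPM in control. CDH2, COL1A1 and PDGFRB averaged 331, 75.6 and 47.1 CPM there, and COL1A2 had 0 counts. The 6 leukocyte and endothelial markers summed to between 4.44 and 7.77 CPM. Most of this was endothelial CDH5, which averaged 5.56, 4.85 and 4.07 CPM in control, PG/VG and EC, above EPCAM and CDH1.

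Per transcript length, ESD had the most abundant RNA of the group. Its level was 192 ± 14.4 TPM (counts scaled by transcript length and library total, mean ± SD over all 9 libraries), followed by ADH5 with 130 ± 10.6 TPM, ALDH9A1 with 103 ± 5.63 TPM and ALDH7A1 with 93.2 ± 6.99 TPM. ADH5 and ESD, the genes of the formaldehyde route, together held 308 to 342 TPM of the 668 to 702 TPM of all 10 genes in control libraries. Next came ALDH3B1 with 58.8 ± 18.5 TPM, ALDH1B1 with 57.0 ± 10.3 TPM, ALDH3A2 with 38.1 ± 8.07 TPM and ALDH1A3 with 32.3 ± 12.6 TPM. ALDH2, the mitochondrial acetaldehyde dehydrogenase, was low at 8.86 ± 2.07 TPM, with the longest canonical transcript of the group (9561 bases). Not scaled by length, it averaged 30.2 CPM in control, near the 32.4 CPM of ALDH1A3. The order of neighbours held in all 9 libraries except for ALDH9A1 over ALDH7A1, which held in 7, ALDH3B1 over ALDH1B1, which held in 5, and ALDH3A2 over ALDH1A3, which held in 6. The order depends on the length used: with all annotated exons of a gene in place of its canonical transcript, ALDH9A1 ranked highest with 145 TPM and ESD came after ADH5 with 108 TPM. ALDH2, at 15.4 TPM by that length, was close to ALDH3A2 at 16.3 TPM.

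ALDH1A1 (ENSG00000165092, chr9:72900671-73080442, minus strand), the cytosolic retinaldehyde dehydrogenase that marks many stem-like cells, was close to absent from the counts. It had 2 counts in control replicate 4, in PG/VG replicate 4 and in EC replicate 2, and 0 in the other libraries. A count of 3, the upper limit that a count of 0 allows, corresponds to 0.119 to 0.191 CPM in these libraries, and no fold was computed.

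**Figure D1:**
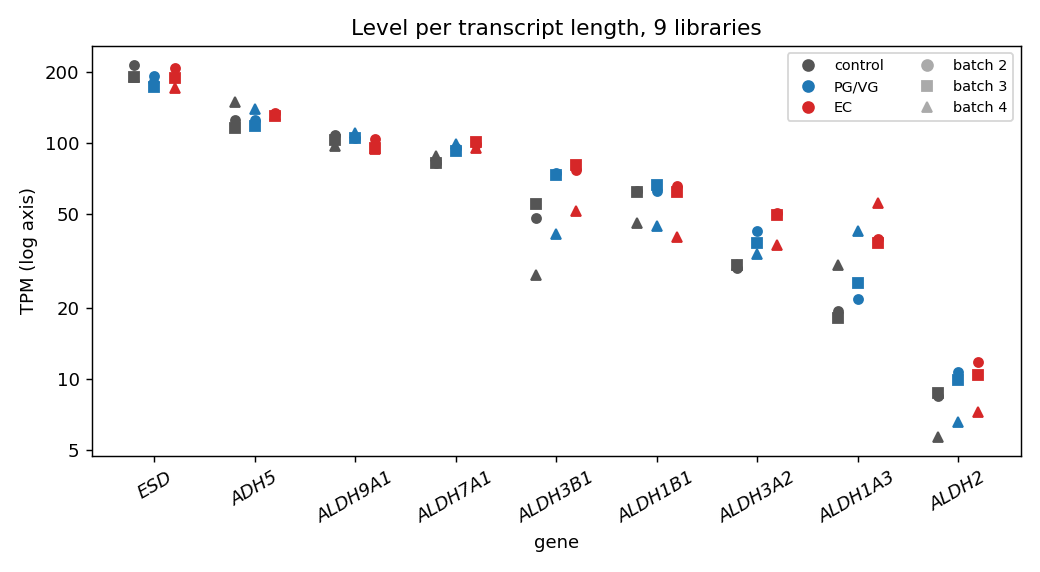
Level of the 9 tested genes in TPM (log axis) in each of the 9 libraries, with condition by color and batch by symbol. ESD and ADH5 sit highest and ALDH2 lowest, between 5.67 and 11.8 TPM, and ALDH3B1 and ALDH1A3 spread widely, and within each condition batch 4 is below the other batches for ALDH3B1 and above them for ALDH1A3.

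EC against control asks what the condensate with nicotine and flavor did to these RNAs. ALDH1A3, ALDH3B1, ALDH3A2 and ALDH2 rose, and no member fell. These are 4 of the 9 tested, while 8.07% of all genes tested were called higher in the same comparison. Since the members were picked with earlier results known, this count and those of the other comparisons are not independent of those results. The median log2 fold change was 0.13 over the 9 members and 0.0078 over all genes tested. In RNA from whole cultures, more RNA per cell and more cells that carry it cannot be told apart.

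ALDH1A3 (ENSG00000184254, GRCh38 chr15:100877714-100916626, plus strand, 13 exons in the canonical transcript) oxidizes retinaldehyde to retinoic acid and is a common airway and carcinoma aldehyde dehydrogenase. Its level was 27.7, 26.3 and 43.2 CPM in control replicates 2, 3 and 4, and 29.8, 35.9 and 54.9 CPM in the PG/VG replicates. In the EC replicates it was 55.1, 50.9 and 72.5 CPM. Every EC library lay above every control library, and within each batch the order was control, PG/VG, EC. The mean rose from 32.4 ± 9.38 to 59.5 ± 11.4 CPM (SD, n = 3 each), a fitted log2 fold change of 0.90 (SE 0.090, adjusted p = 1.27e-06). The differences within batches 2, 3 and 4 were 0.99, 0.95 and 0.75. Of the exon length of ALDH1A3, 33.3% overlaps other genes, mainly the antisense gene ALDH1A3-AS1, and the sources used here do not state whether counting used strand. ALDH1A3-AS1 itself was at 2.42 CPM in control and 3.85 CPM in EC (log2 fold change 0.67, SE 0.19, adjusted p = 0.0213), a call that was lost without control replicate 2, 3 or 4 or EC replicate 3 or 4 (highest adjusted p = 0.111).

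The stretch before the start site of ALDH1A3 is shown because ALDH1A3 had the largest log2 fold change of the members in EC vs. control. It lies at chr15:100879581-100879812 (RefSeq, GRCh38.p14, plus strand), 250 to 19 bases before the start, and the capitals mark GCGTG on either strand, the core of the xenobiotic response element. The ALDH3A2 stretch at chr17:19648691-19648720 (plus strand), 60 to 31 bases before its start, is shown for its capitals, a match to CACGTGAC on the minus strand, an octamer that was added to the search after the sequences had been read.

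ALDH1A3: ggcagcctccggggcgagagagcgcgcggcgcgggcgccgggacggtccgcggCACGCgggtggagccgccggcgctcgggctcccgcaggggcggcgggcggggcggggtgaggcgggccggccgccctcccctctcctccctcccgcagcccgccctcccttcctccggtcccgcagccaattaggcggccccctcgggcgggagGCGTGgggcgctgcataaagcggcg

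ALDH3A2: gaacagcggctGTCACGTGggccgcccagg

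Promoter sequence of 250 bases before and 50 after the start was at hand for 9 of the 10 genes, all but ALDH2. GCGTG on either strand was in 4 of the 9, ALDH1A3 (2 matches), ALDH3A2 (2), ADH5 (3) and ESD (1), and in 36.5% of all 35116 promoters of this length. ADH5 and ESD hold it and were not called, and ALDH3B1, which was called, has no match. TGACNNNGC, the core of the antioxidant response element, was in none of the 9 and in 13.3% of all promoters. CACGTGAC was in 1 of the 9 and in 2.4% of all promoters. The matches are letters only and say nothing of binding, and any link between matches and calls was not tested.

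ALDH3B1 (ENSG00000006534, chr11:68008578-68029282, plus strand) acts on aldehydes from oxidized membrane lipids. Its level was 56.0, 65.1 and 31.8 CPM in control, 82.8, 83.0 and 43.0 CPM in PG/VG and 87.7, 88.2 and 54.0 CPM in EC, in replicates 2, 3 and 4. The groups overlapped, since all 3 batch 4 libraries were lower than the others of their condition, but within each batch both treated libraries were above the control. The mean was 51.0 ± 17.2 CPM in control and 76.6 ± 19.6 CPM in EC (SD, n = 3 each), with a log2 fold change of 0.61 (SE 0.080, adjusted p = 2.61e-05).

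ALDH3A2 (ENSG00000072210, chr17:19648136-19685760, plus strand) is the fatty aldehyde dehydrogenase of the endoplasmic reticulum, whose loss causes Sjögren-Larsson syndrome. Control libraries were close together at 45.4, 47.2 and 46.0 CPM. The PG/VG libraries were at 62.1, 56.5 and 46.8 CPM and the EC libraries at 76.2, 71.7 and 51.1 CPM. The batch 4 libraries moved least: EC minus control was 0.75 and 0.60 on the log2 scale in batches 2 and 3 and 0.15 in batch 4. The fitted log2 fold change was 0.50 (SE 0.091, adjusted p = 0.000802), and 0.66 without batch 4 (adjusted p = 0.00077).

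ALDH2 (ENSG00000111275, chr12:111766887-111817532, plus strand) was at 33.5, 34.9 and 22.2 CPM in control, 40.6, 38.4 and 23.4 CPM in PG/VG and 45.8, 38.7 and 25.8 CPM in EC. EC was above control in each batch and the groups overlapped. The log2 fold change was 0.28 (SE 0.086, adjusted p = 0.0355), the largest adjusted p of the 4 calls. It was lost in 4 of the 9 fits with 1 library left out (control replicate 2 or 3, EC replicate 2 or 4), with a highest adjusted p of 0.290, and without batch 4 (adjusted p = 0.0941).

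The other 5 tested members did not pass the test, and 2 of them, ALDH9A1 and ESD, had an unadjusted p under 0.05 (0.0372 and 0.0454). At that level were 6 of the 9 members in this comparison, and 4391 of the 16030 genes tested. ALDH1B1 (chr9:38392702-38398661), a mitochondrial relative of ALDH2, had a log2 fold change of −0.12 (95% interval −0.29 to 0.041). ALDH7A1 (chr5:126531200-126595362), the lysine-breakdown enzyme known as antiquitin, had 0.13 (−0.0085 to 0.28), and ALDH9A1 (chr1:165662216-165698562), which acts in carnitine synthesis, had −0.16 (−0.31 to −0.010). For the formaldehyde route, ADH5 (chr4:99070978-99088801) had −0.063 (−0.22 to 0.094) and ESD (chr13:46771256-46797420) had −0.16 (−0.31 to −0.0035). ADH5 levels were 138, 129 and 163 CPM in control and 144, 135 and 131 CPM in EC, and the EC minus control difference was 0.070 and 0.060 in batches 2 and 3 and −0.32 in batch 4. ESD was at 99.8, 89.4 and 87.9 CPM in control and 94.8, 82.8 and 71.7 CPM in EC, lower in EC in each batch (adjusted p = 0.172). ADH5 and ALDH7A1 each have 4 annotated pseudogenes, and multi-mapping reads were ignored in counting, so their levels are uncertain.

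**Figure D2:**
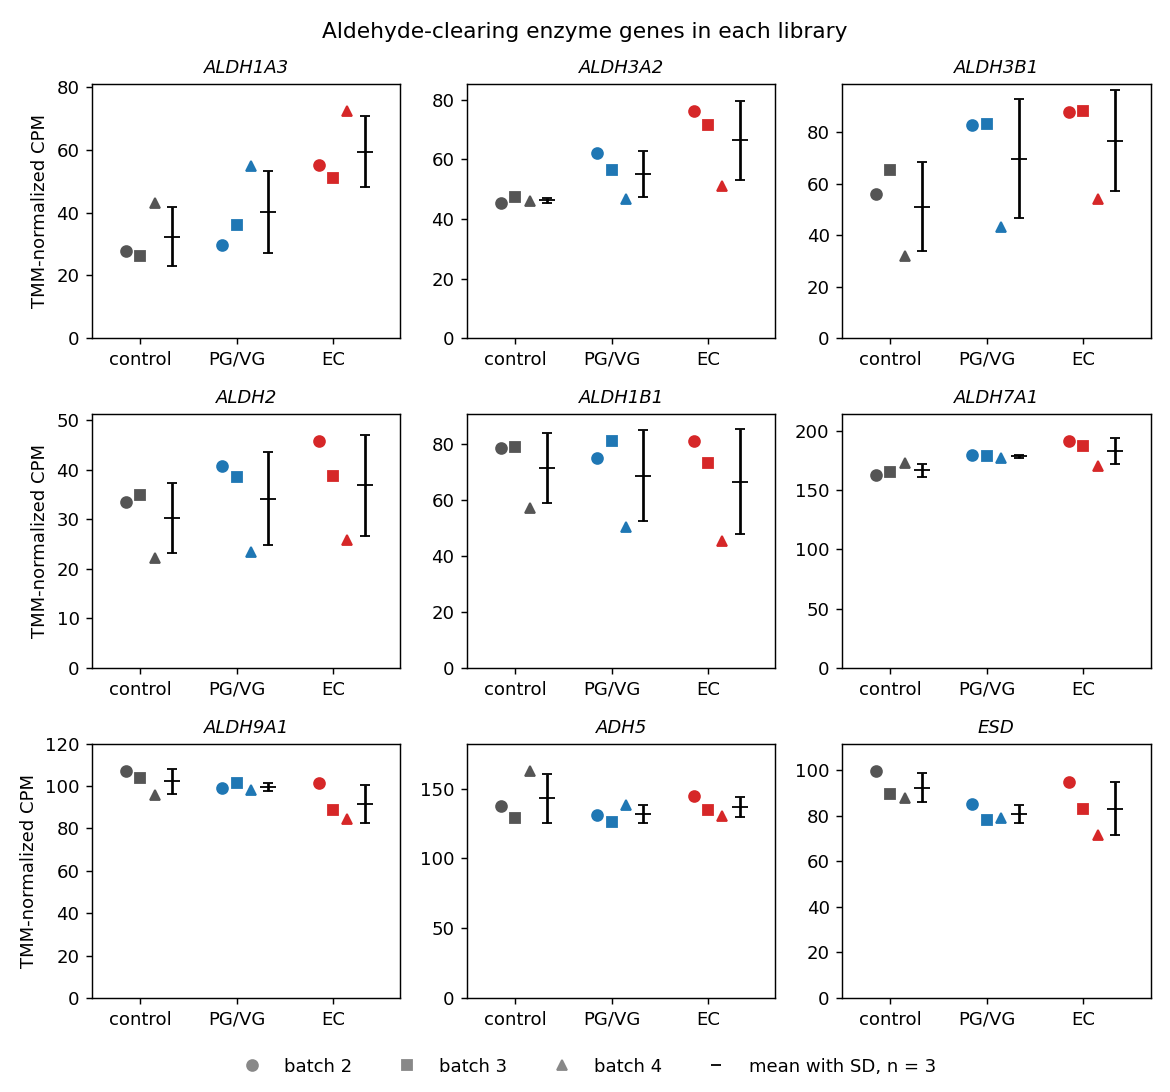
TMM-normalized CPM of the 9 tested genes in each library, by condition (horizontal) and batch (symbol), with mean and SD of the 3 libraries in black. ALDH1A3 and ALDH3A2 are the panels in which all EC libraries lie above all control libraries, from 50.9 and 51.1 CPM upward, and the batch 4 libraries are low for ALDH3B1, ALDH2 and ALDH1B1 and high for ALDH1A3.

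The CPM ranges of EC and control did not overlap for 2 of the 9 members, ALDH1A3 and ALDH3A2, compared with 17.3% of all genes tested. Without the replicate block, no member was called in any of the 3 comparisons, and 16 of all genes tested were called in EC vs. control; the calls of these genes rest on the batch term.

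PG/VG against control asks what the carrier condensate did. ALDH3B1 alone rose, 1 of 9 members, compared with 2.63% of all genes tested called higher. Its mean was 69.6 CPM in PG/VG against 51.0 CPM in control, with a log2 fold change of 0.45 (SE 0.080, adjusted p = 0.00216). The differences in batches 2, 3 and 4 were 0.56, 0.35 and 0.43. ALDH1A3 had a log2 fold change of 0.30 (SE 0.092, 95% interval 0.11 to 0.49) and an adjusted p of 0.0593, just outside the threshold, and its adjusted p lay under it in 6 of the 19 alternatives. ALDH3A2 had 0.24 (0.049 to 0.43, adjusted p = 0.141), and ALDH2 had 0.16 (−0.014 to 0.34, adjusted p = 0.293).

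Of the formaldehyde route, ESD had a log2 fold change of −0.19 in PG/VG (95% interval −0.35 to −0.039, adjusted p = 0.141), with 85.2, 78.1 and 78.9 CPM in replicates 2, 3 and 4. These lie under the 3 control values, and those of ALDH7A1, at 179, 179 and 177 CPM in PG/VG against 162, 165 and 173 CPM in control, lie above them (log2 fold change 0.097, adjusted p = 0.460). The ranges did not overlap for these 2 members, while 14.2% of all genes tested had no overlap. ADH5 had −0.11 (−0.27 to 0.042), ALDH1B1 −0.071 (−0.24 to 0.094) and ALDH9A1 −0.035 (−0.18 to 0.11).

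EC against PG/VG compares the condensate with nicotine and flavor with that of the carrier liquid. A difference in carrier ratio between the 2 liquids cannot be told apart from nicotine and flavor. ALDH1A3 rose, 1 of 9 members, compared with 0.555% of all genes tested called higher. Its log2 fold change was 0.59 (SE 0.088, adjusted p = 0.000874), with 0.88, 0.50 and 0.40 in batches 2, 3 and 4, and it was called in each of the 9 fits with 1 library left out. The other members did not pass the test: ALDH3A2 had 0.26 (95% interval 0.077 to 0.45, adjusted p = 0.182), ALDH3B1 0.16 (0.0019 to 0.32, adjusted p = 0.381) and ALDH2 0.11 (−0.063 to 0.28). ADH5 had 0.052 (−0.10 to 0.21) and ESD 0.036 (−0.12 to 0.19). In CPM the EC and PG/VG ranges overlapped for all 9 members, and 7.91% of all genes tested had no overlap. Both treatments were set against the same control libraries, so their values stand side by side and neither supports the other.

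**Figure D3:**
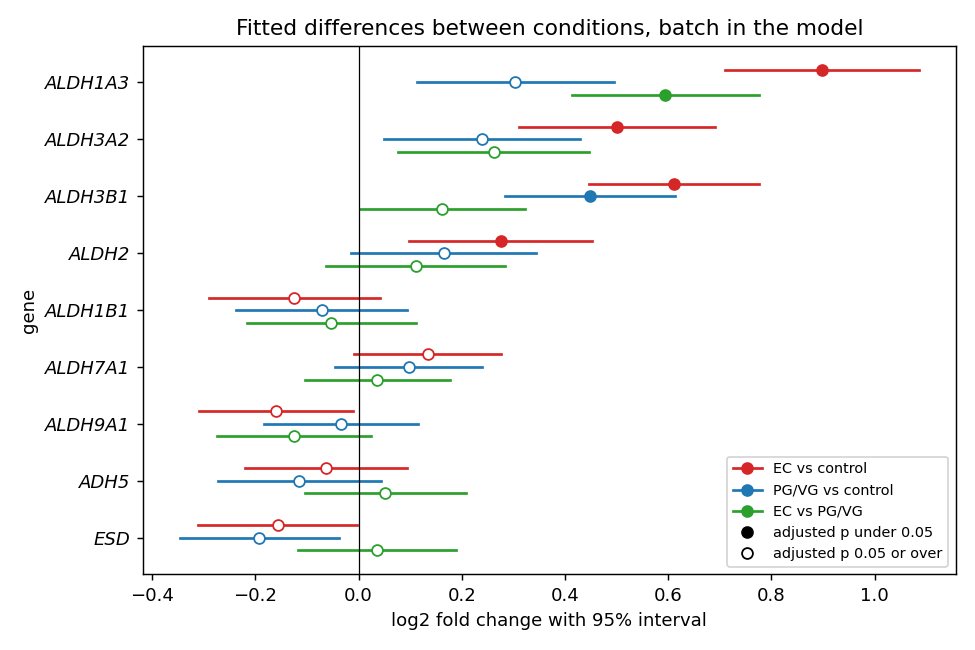
Fitted log2 fold change with 95% interval for the 9 tested genes in the 3 comparisons, with filled circles for an adjusted p under 0.05. ALDH1A3 is called in EC vs. control and EC vs. PG/VG, ALDH3B1 in both comparisons with control, and ALDH3A2 and ALDH2 in EC vs. control.

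**Figure D4:**
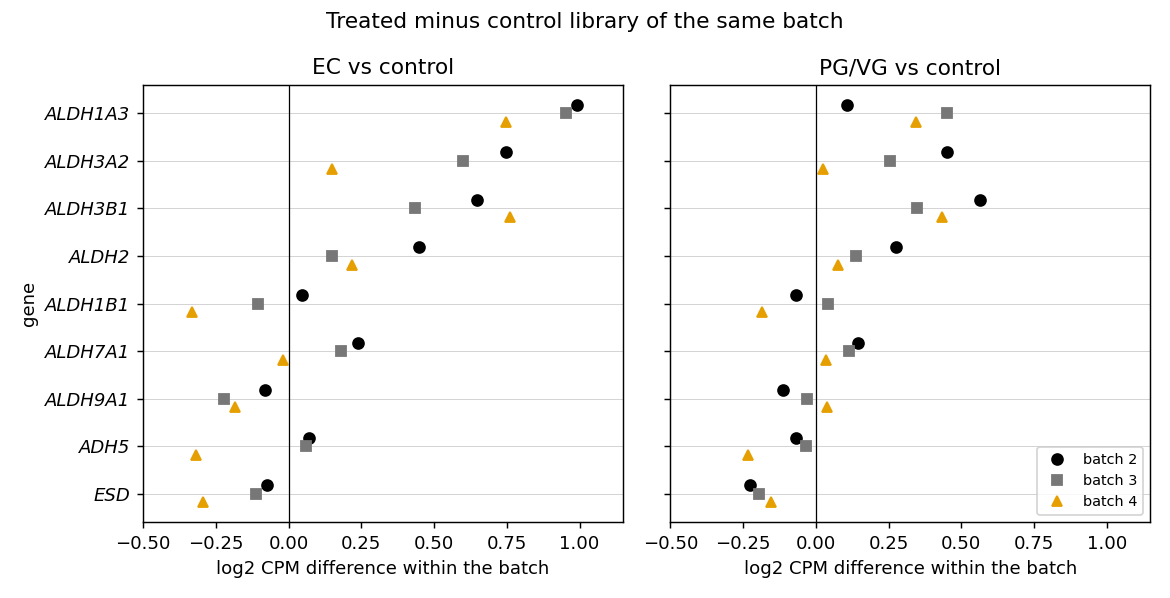
Difference in log2 CPM between the treated and the control library of the same batch, for EC (left) and PG/VG (right). For ALDH1A3 and ALDH3B1 the 3 batches lie between 0.11 and 0.99 in both panels, and for ADH5 in EC batch 4 lies at −0.32 while batches 2 and 3 lie at 0.070 and 0.060.

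The 10 genes together held 668 to 702 TPM in control, 702 to 731 TPM in PG/VG and 685 to 791 TPM in EC. The sum of the 8 aldehyde dehydrogenase genes was 327 to 362 TPM in control, 379 to 413 TPM in PG/VG and 382 to 448 TPM in EC. In TMM-scaled CPM the ranges of both sums overlapped between conditions. All 10 genes held 719 to 748 CPM in control, 711 to 785 CPM in PG/VG and 706 to 878 CPM in EC. The 8 genes held 511, 521 and 469 CPM in control replicates 2, 3 and 4. They held 569, 575 and 493 CPM in PG/VG and 639, 599 and 504 CPM in EC. ADH5 and ESD together were at 308 to 342 TPM, 291 to 330 TPM and 303 to 343 TPM. ALDH1A3 made up 2.71% to 4.55% of the group's TPM in control and 4.95% to 8.17% in EC.

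The members also differed between batches. Of the 9 tested, 6 differed between batches, against 34.3% of all genes tested (ALDH1A3, ALDH1B1, ALDH2, ALDH3A2, ALDH3B1 and ESD). In batch 4, relative to the mean of batches 2 and 3 at the same condition, ALDH3B1 was lower by a log2 difference of −0.86, ALDH2 by −0.70, ALDH1B1 by −0.62 and ALDH3A2 by −0.30, while ALDH1A3 was higher by 0.62. ALDH7A1, ALDH9A1 and ADH5 did not pass the test, with −0.029, −0.11 and 0.10. What differs between the batches is not stated beyond the number.

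With the batch mean removed, the genes whose log2 CPM followed ALDH1A3 most closely over the 9 libraries, among 9687 genes of at least 10 CPM, were ITFG1 (r = 0.992), IDH1 (r = 0.990) and P4HA2 (r = 0.985). For ALDH3B1 they were PCYOX1L (r = 0.990), FIBCD1 (r = 0.990) and EPOP (r = 0.988). The libraries share condition and batch, so these are descriptions.

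Genes around the 10 members were read from lists of their pathways, chosen with earlier results of these data known. The counts of each list stand beside these shares of all genes tested called higher. They were 8.07% in EC vs. control, 2.63% in PG/VG vs. control and 0.555% in EC vs. PG/VG. Of 11 other aldehyde dehydrogenase genes, 8 were tested and 2 rose in EC, with none lower. ALDH3A1, a cytosolic enzyme of the xenobiotic response, had 0.953, 0.805 and 0.957 CPM in control, 1.43, 0.766 and 1.97 CPM in PG/VG and 3.85, 2.60 and 2.43 CPM in EC. Its log2 fold change was 1.71 in EC vs. control (SE 0.29, adjusted p = 0.000423) and 1.09 in EC vs. PG/VG (SE 0.26, adjusted p = 0.0452), the latter call being lost without PG/VG replicate 2 or 3 or EC replicate 2 or 3 (highest adjusted p = 0.408). ALDH5A1, the mitochondrial succinic semialdehyde dehydrogenase, rose by 0.49 in EC (SE 0.11, adjusted p = 0.00574) and 0.46 in PG/VG (SE 0.11, adjusted p = 0.0192). The EC call was lost without control replicate 2 (adjusted p = 0.0505), and the PG/VG call without control replicate 2 or 4 or PG/VG replicate 2 or 4 (highest adjusted p = 0.156). The 6 other alcohol dehydrogenase genes had no testable counts, summing to at most 0.495 CPM, so that ADH5 was the only testable one.

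Glutathione is the cofactor of the formaldehyde route. Of its 5 supply genes, 1 rose in EC: GSR, which regenerates glutathione, with a log2 fold change of 0.30 (SE 0.075, adjusted p = 0.00945). GCLC and GCLM, the subunits of the rate-limiting enzyme, had 0.18 and 0.12 and did not pass. The GSR call was lost without control replicate 2 or 3 or EC replicate 2 or 3 (highest adjusted p = 0.0978). None of the 4 glyoxalase genes passed edgeR's test in any comparison, and 0 had an unadjusted p under 0.05. Of 7 tested carbonyl reductases, AKR1B10 and AKR1C3 rose in EC with log2 fold changes of 1.32 and 1.31, at 0.433 to 5.36 CPM over all libraries (adjusted p = 0.00413 and 0.0160). AKR1B10 lost its call without control replicate 4 (adjusted p = 0.127), and AKR1C3 without control replicate 2 or 3 or EC replicate 2 or 3 (highest adjusted p = 0.100).

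ALDH1A3 makes retinoic acid, so retinoid genes were listed. Of 10 tested, 3 rose in EC and 2 in PG/VG, compared with 8.07% and 2.63% of all genes tested. In EC, 7 had a positive and 3 a negative log2 fold change. In EC vs. PG/VG, 0 were called and the median was −0.023. A response of the retinoid pathway was not tested. RDH10, which makes retinaldehyde, rose by 0.56 in EC (adjusted p = 0.00174) and 0.40 in PG/VG (adjusted p = 0.0424) on the log2 scale. DHRS3, which returns retinaldehyde to retinol, rose by 0.53 (adjusted p = 0.000717) and 0.68 (adjusted p = 0.000268). CYP26B1, which degrades retinoic acid, rose by 0.76 in EC (adjusted p = 0.0194). The RDH10 call in PG/VG was lost in 6 of the 9 fits with 1 library left out, all but those without control replicate 3, EC replicate 2 or EC replicate 3 (highest adjusted p = 0.225), and that of CYP26B1 without control replicate 3, EC replicate 2 or EC replicate 3 (highest adjusted p = 0.141).

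Of 17 crosslink repair genes, which mend DNA damage that aldehydes can cause, 1 rose and 1 fell in EC, and 1 rose in PG/VG. Of all genes tested, 8.07% were called higher in EC and 2.63% in PG/VG, and 863 of 16030 were called lower in EC. The calls are results of single genes and not of the list. SLX4, a nuclease scaffold, rose in EC (log2 fold change 0.35, adjusted p = 0.0192) and PG/VG (0.48, adjusted p = 0.00561). FANCE, of the Fanconi anemia core complex, fell in EC (−0.38, adjusted p = 0.00649). SLX4 lost its EC call without control replicate 2 or 3 or EC replicate 3 or 4 (highest adjusted p = 0.117) and its PG/VG call without PG/VG replicate 2 (adjusted p = 0.101), and FANCE lost its call without EC replicate 3 (adjusted p = 0.0527). Median log2 fold changes of this list were −0.024 in EC and 0.028 in PG/VG.

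Cell identity markers moved in the same comparison. In EC, 3 of 6 tested epithelial markers fell, KRT7 (−0.45), KRT8 (−0.25) and KRT18 (−0.46), and of 5 tested mesenchymal markers FN1 (−0.58) and CDH2 (−0.25) fell and PDGFRB (0.25) rose. In PG/VG, no epithelial marker passed, VIM fell (−0.27), and COL1A1 (0.26) and PDGFRB (0.31) rose. In EC vs. PG/VG, KRT7 (−0.32) and FN1 (−0.47) fell. Of all 16030 genes tested, 863 were called lower in EC vs. control, 305 in PG/VG vs. control and 48 in EC vs. PG/VG. The 8 epithelial markers, by level mostly KRT7, KRT8 and KRT18, summed to 1776 to 2844 CPM in control and 1460 to 2287 CPM in EC. Their part in the member results was not tested.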

How the data were processed

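The deposited table holds raw counts per gene, made by the authors with fastp, STAR (GRCh38.p12) and featureCounts of Subread 2.0.4 on exons, ignoring multi-mapping and multi-overlapping reads. Strand is not given in the sources used here. The 3 replicates per condition were biological, per the study's methods. A gene was tested if 3 or more libraries held 10 or more counts, using edgeR 4.0.16 in R 4.3.3 (TMM, robust quasi-likelihood, 1 fit of all 9 libraries with condition and batch, Benjamini-Hochberg adjustment over all genes tested, threshold 0.05). Batch was included because the authors removed it with ComBat-Seq. Deviations of libraries of the same number from different conditions correlated with r = 0.334 to 0.707 over 9 pairs, against −0.539 to 0.426 for different numbers. The high values were those of batch 4 (0.648 to 0.707). Batches 2 and 3 were not told apart by this: PG/VG replicate 2 had r = 0.356 with EC replicate 2 and 0.426 with EC replicate 3. The SE was derived from the log2 fold change and its F value. CPM uses TMM-scaled sizes and TPM uses Ensembl canonical transcript lengths. Symbols and coordinates came from GENCODE v44 on GRCh38, matching 62666 of 63187 rows. Alternatives used DESeq2 1.42.0 and sva 3.50.0. The steps were tested on simulated counts. All 10 members are described. Genes of other lists are named if called, at most 3 per list and comparison, with others given as context or because near 0. Most alike genes have the highest Pearson r. The members and lists were chosen with earlier results of these data known.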

Additional observations from a re-analysis of the deposited data

Results flagged for a closer look

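ALDH1A3 was singled out because the effects of EC and PG/VG, measured against the same control libraries, differed by the direct test of EC vs. PG/VG. The log2 difference was 0.59 (SE 0.088, 95% interval 0.41 to 0.78, adjusted p = 0.000874), and EC was higher than PG/VG in 3 of 3 batches. Over 19 alternatives the value lay between 0.47 and 0.70, and it was called in 18 of them, the exception being the fit without the replicate block.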

How the results depend on the processing

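Without the replicate block, 0 members were called in EC vs. control, 0 in PG/VG vs. control and 0 in EC vs. PG/VG by edgeR's test. In PG/VG vs. control, 2 were called in place of 1 with library size as the only scaling, with no filter on low counts, and with the 2 groups fitted alone. ComBat-Seq counts with DESeq2 gave 3 in PG/VG vs. control, of which ESD was lower (−0.20), 2 in EC vs. PG/VG, both higher, and 6 in EC vs. control, of which ALDH9A1 and ESD were lower. With each library left out in turn, 3 to 4 members were called in EC vs. control, 1 to 2 in PG/VG vs. control, 1 in EC vs. PG/VG and 4 to 6 between batches. The 2 calls in PG/VG came without control replicate 4, PG/VG replicate 2 or EC replicate 2. The call of ALDH2 in EC was also lost with DESeq2 and at a threshold of 0.01. Values near 0 changed sign when 1 library was left out, namely ADH5 in EC vs. control (−0.13 to 0.032) and EC vs. PG/VG (−0.0015 to 0.14), ALDH1B1 in PG/VG vs. control (−0.12 to 0.0064) and EC vs. PG/VG (−0.14 to 0.0081), ALDH9A1 in PG/VG vs. control (−0.088 to 0.024), ESD in EC vs. PG/VG (−0.014 to 0.11) and ALDH7A1 in EC vs. PG/VG (−0.0017 to 0.090). ADH5 in EC vs. control was 0.051 without batch 4, an alternative chosen after seeing the data. The causes were not tested. RLE normalization and a filter of at least 10 counts in every library changed no member's call.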
